A study of Mus musculus with 2 samples.

Results

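The genes described here encode the coats, sorting devices and tethers of membrane traffic. They were taken by name: every gene of the deposited site list whose symbol starts with Vps, Snx, Sec, Exoc, Arf, Cog or Trappc and a digit, or with Ap, a digit from 1 to 5 and one of the letters b, d, e, g, m, s and a. The rule uses the symbol only and no measured value. It took 85 of the 6929 genes of the list and all 153 of their sites, of 17755 sites in all. They are called vesicle traffic genes below. A few symbols match by spelling but name other machinery: the protein translocon and signal peptidase of the endoplasmic reticulum (ER; Sec61a2, Sec62, Sec63, Sec11c), Sec14-like proteins and the chromatin protein gene Vps72. These are described after the others.

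The series holds 1 group of 2 libraries, without a control group: NeuN-stained, flow-sorted nuclei of mouse cortex (labelled Neuron, Nuclei) with the genotype APOBEC1-YTH, a fusion of a cytidine deaminase and an m6A-binding domain. Both libraries share the treatment: tamoxifen at 20 mg/kg every 24 hours for 5 days from 10 weeks of age, with collection 7 days after the last dose, and nuclei fixed in 50% ethanol before staining. The labels name neither the promoter that drives the fusion nor the strain or sex, and they do not say whether a library is 1 animal. One label field names polyA RNA and the protocol a total RNA kit, so the RNA fraction is uncertain. Where the fusion meets N6-methyladenosine (m6A) in RNA it turns nearby cytidines into uridines, so the editing level of a site, in percent, is taken as a readout of m6A close by. Without a control group, sites that do not depend on m6A cannot be told apart from those that do. The authors deposited 1 value per site for both libraries together, with 0 columns of coverage, so depth is not given and no error between libraries can be given. Some high levels recur at unrelated sites, such as 14.3% in Ap1ar, Sec22b, Snx12 and Snx18. Whether high levels rest on few reads was not tested, so rankings by level are of listed values only. Every SD below is a spread across sites or genes, and no p-value is given, because the values of 1 list carry no replicate error.

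The label of neuronal nuclei was checked against short marker lists. Sites were listed for 5 of 10 neuronal markers (15 sites), 7 of 10 astrocyte markers (150 sites), 9 of 10 oligodendrocyte markers (56 sites), 5 of 10 microglial markers (19 sites) and 8 of 10 endothelial and pericyte markers (60 sites). Of all RefSeq protein-coding genes 28.3% had a site. Neuronal markers had the fewest sites and, with microglial markers, the lowest share, so these lists did not set neurons apart from other cell types. Rbfox3, which encodes NeuN, had 0 sites. The traffic genes described here work in nearly all cells, so from which cells their sites came cannot be told from the list.

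As background, cargo leaves the ER in COPII-coated vesicles, and at the Golgi and on endosomes ARF GTPases recruit adaptor complexes that select cargo for clathrin and other carriers. Retromer and sorting nexins return receptors from endosomes, ESCRT complexes sort cargo into multivesicular bodies, and tethers such as HOPS, GARP, the exocyst, COG and TRAPP catch vesicles before fusion. In neurons this traffic supplies axons and dendrites with membrane proteins and recycles synaptic vesicles and receptors.

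Sequence around the edited base could be read for 2 of the 153 sites, those that fall in a RefSeq promoter window (GRCm38.p6, the assembly that mm10 names). They are shown because they let the called base itself be seen. Both are written 5′ to 3′ on the strand of the gene, with 14 bases on each side of the edited C, which is in capitals together with any GGAC. The Sec61a2 site (chr2:5895292-5895320, minus strand, edited at 2.50%) lies 126 bases from the start of its gene, and the Vps51 site (chr19:6067962-6067990, minus strand, edited at 6.98%) lies 134 bases from the 3′ end of its gene.
Sec61a2: cggagcggaggcagCtgcgaggccgcggg
Vps51: cttcctcttgcctgCaggggcgGGACccg

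In both sequences the listed base is a C preceded by G. GGAC, a common core of the m6A consensus, occurs in the Vps51 sequence with its A 10 bases after the edited C, and these letters are not in the Sec61a2 window. Of the 220 sites of the whole list with such a sequence, 220 have a C at the listed position, 16.8% have an A directly before it (18.2% of all C in the promoter windows, both strands), and 12.7% have GGAC within the 29 bases, on the strand of the gene. Of same-length windows centred on each C of the promoter windows, on either strand, 9.39% hold GGAC. These windows lie at gene starts and need not stand for the other sites.

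A called site was common in this machinery. Of 163 RefSeq protein-coding genes with such a symbol, 85 had a site (52.1%), against 28.3% of all RefSeq protein-coding genes. The genes are longer than most, with a median span of 31.2 kb for the vesicle traffic genes and 17.1 kb for all other protein-coding genes. Within classes of span the shares were 34.5% (20 of 58) against 17.1% (2024 of 11803) under 20 kb, 56.6% (30 of 53) against 34.8% from 20 to 50 kb, 58.6% (17 of 29) against 45.5% from 50 to 100 kb, and 78.3% (18 of 23) against 50.0% from 100 kb up. The vesicle traffic genes thus had the higher share in each of the 4 classes. How much RNA of each gene was sequenced is not in the list, and its part in these shares was not tested. In nuclei collected in bulk, fewer cells of a type and less RNA per cell cannot be told apart.

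**Figure D1:**
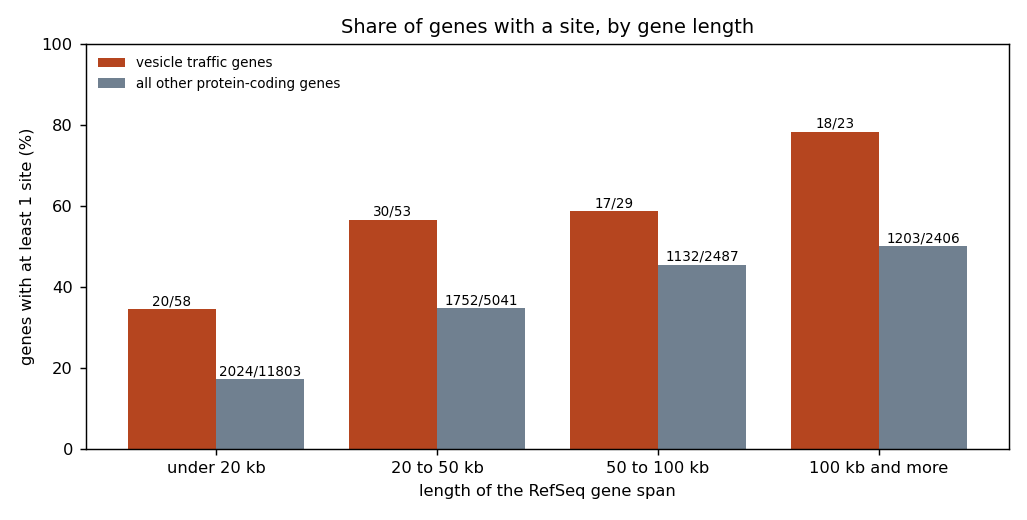
Share of genes with at least 1 called site (y axis, percent) in 4 classes of RefSeq gene span (x axis), for vesicle traffic genes (red, left bar) and all other protein-coding genes (grey, right bar), with the counts above the bars. The red bar is the higher in each class, from 34.5% against 17.1% in the shortest to 78.3% against 50.0% in the longest.

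Few of these genes had many sites. The 85 genes held 1.80 sites each, against 2.57 in the 6844 other genes of the list. A single site was called in 44 of them (51.8%; 49.2% of all genes of the list), 22 of the 85 had 2 sites (19.9% of all genes of the list did), and 19 had 3 or more (22.4%; 30.9% of all genes of the list). Only 2, Vps13c and Sec63, had 5 or more (2.35%; 13.5% of all genes of the list). Spearman's rho of site number and span was 0.302 over all 163 genes, those with 0 sites included, and 0.068 over the 85 with a site (all from the same libraries).

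Editing levels lay low and within the range of the rest of the list. The median site was edited at 3.92% (quartiles 2.27% and 6.90%), against 3.64% (2.00% and 6.90%) for sites of all other genes. Gene means had a median of 4.57% and a mean of 5.83% ± 4.54 (SD, n = 85 genes), against a median of 5.0% and a mean of 6.58% ± 5.29 (SD, n = 6844 genes). Of the 153 sites, 19 (12.4%) reached 10%, where 14.9% of all sites did, and 3 (1.96%) reached 20%, where 2.02% of all sites did. The highest level was 23.1%, while the other genes reached 94.9%.

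**Figure D2:**
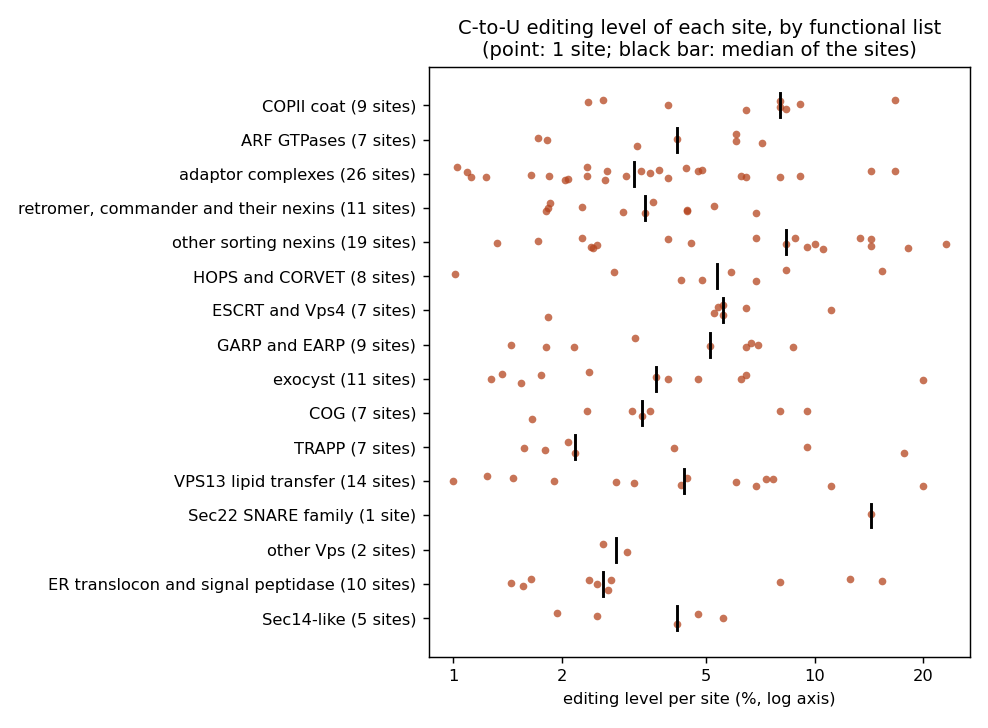
Editing level of each of the 153 sites (x axis, percent, log axis) in the functional lists (y axis, with the number of sites); a point is 1 site and a black bar the median of the list's sites. Levels run from 1.0% in Vps13d to 23.1% in Snx16, and low and high levels occur side by side within most lists.

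The COPII coat, which buds vesicles from the ER, had sites in 5 of 12 genes, 9 in all. The inner coat genes Sec23a and Sec23b, which activate the GTPase SAR1, had 1 site each, at 6.45% and 8.0%. Among the cargo-binding SEC24 genes, Sec24a (chromosome 11, 51692263 to 51757161) had 2 sites, one at 16.7% in its last 1 kb and one at 9.09% at 39622 bases from the 3′ end. Sec24b (chromosome 3, 129982759 to 130061599) had 3 sites at 3.92%, 8.0% and 8.33%, and Sec24c and Sec24d had 0. Sec16a, which organises ER exit sites, had 2 sites at 2.60% and 2.36%. The outer coat genes Sec13, Sec31a and Sec31b were without a site, as were Sec16b and Sec23ip. Genes without a site thus occurred in the outer cage, in the inner, cargo-binding layer (Sec24c, Sec24d) and among the exit-site genes (Sec16b). Of all RefSeq protein-coding genes 28.3% had a site, and no pattern by layer is read from so few genes.

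ARF GTPases switch coats on at the Golgi and on endosomes. Of 6 genes, Arf1, Arf3 and Arf4 had sites, while Arf2, Arf5 and Arf6, the ARF of the plasma membrane, had 0 (28.3% of all RefSeq protein-coding genes had a site). Arf1 (chromosome 11, 59211412 to 59228267) had 3 sites, at 6.06%, 1.72% and 1.82%. Arf4 (chromosome 14, 26638134 to 26656842) had 3 at 6.06%, 7.14% and 3.23%, and Arf3 had 1 at 4.17%. Of these 7 sites 6 lay in the last 5 kb (49.7% of all sites inside spans did), in genes that span 16.9 to 25.5 kb. The first pair in Arf1 was 34 bases apart and differed 3.52-fold in level, the widest gap in level among the 9 pairs of neighbouring sites within 100 bases.

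Adaptor complexes, which link cargo to clathrin or other carriers, had sites in 14 of 28 genes (26 sites, 1.02% to 16.7%). By kind of subunit the counts were as follows, a split chosen after the values were seen and not tested (28.3% of all RefSeq protein-coding genes had a site). Of the medium (mu) subunits, most of which read tyrosine sorting signals, 6 of 7 had a site, of the large subunits 6 of 12, and of the small (sigma) subunits 1 of 8. Median spans were 17.7 kb for medium, 48.2 kb for large and 35.3 kb for small subunits. In AP-2, the adaptor of clathrin-coated pits at the plasma membrane, Ap2m1 (chromosome 16, 20535480 to 20544909) had 3 sites within 20 bases of each other, at 1.12%, 1.02% and 1.23%, the lowest gene mean of all 85 genes. Ap2b1 had 3 sites spread over 100.3 kb, at 2.08%, 1.64% and 3.51%, and Ap2a2 had 1 at 4.76%. Levels of AP-2 genes thus all stayed under 5%, and the median site of the whole list was at 3.64%. In AP-1, the Golgi and endosome adaptor, Ap1m1 had 3 sites at 2.35%, 2.63% and 3.31%, Ap1g1 had a pair 44 bases apart at 3.0% and 2.67%, and Ap1b1 had 1 at 6.25%. Ap1ar, a regulator that binds AP-1, had 1 at 14.3%.

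In AP-3, which carries cargo to lysosome-related organelles and synaptic vesicles, the 2 medium subunit genes differed in listed level. The depth at these few sites is unknown, so no difference between the genes is read from them. Ap3m2, the form found mainly in neurons, had 1 site at 16.7%, 341 bases from the 3′ end of its gene. The ubiquitous Ap3m1 had 2 sites at 4.88% and 2.35%. The first of these lies 575 bases outside the RefSeq span, and both lie inside the span of Vcl, which runs on the opposite strand. The large subunit genes Ap3b1 (1.09% and 4.41%) and Ap3d1 (1.84% and 2.04%) had 2 sites each, while Ap3b2, the neuronal beta subunit gene, had 0. In AP-4, an adaptor of the trans-Golgi network, Ap4m1 had 3 sites at 6.45%, 8.0% and 3.70%, of which 2 overlap Taf6 on the opposite strand. Ap4s1 had 1 at 3.92%, inside the span of Strn3 on the opposite strand. In AP-5 only Ap5m1 had a site, at 9.09%. The small subunit genes Ap1s1, Ap1s2, Ap1s3, Ap2s1, Ap3s1, Ap3s2 and Ap5s1 and the large subunit genes Ap1g2, Ap2a1, Ap4b1, Ap4e1 and Ap5b1 had 0, as had Ap1m2, whose protein is known from epithelia.

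**Figure D3:**
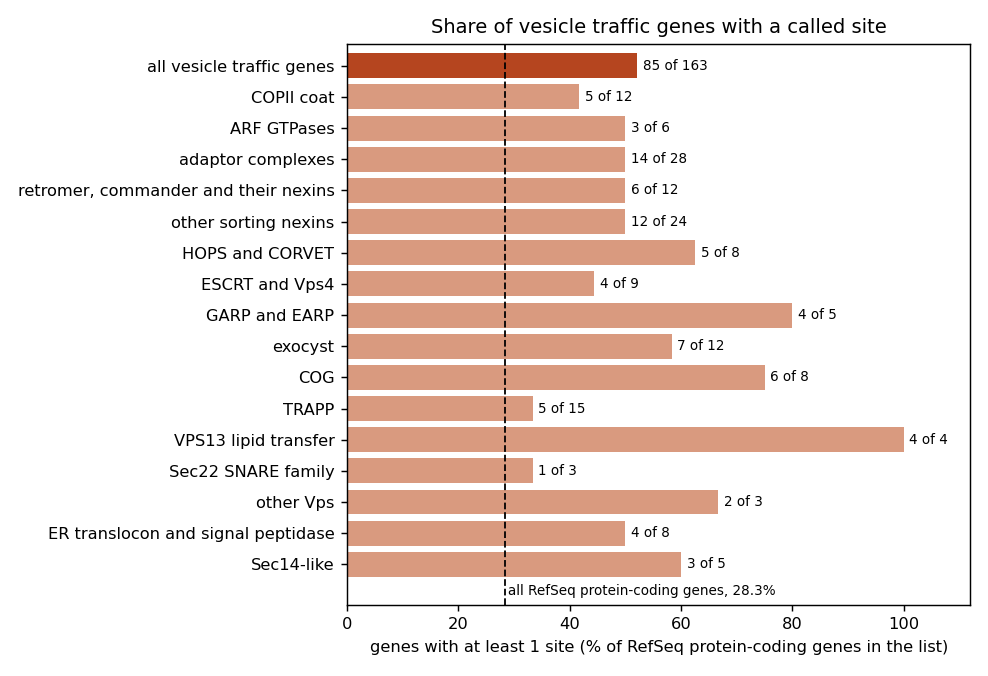
Share of RefSeq protein-coding genes with at least 1 called site (x axis, percent) for all vesicle traffic genes (dark bar) and for each functional list of more than 1 gene (light bars, y axis), with counts; the dashed line is the 28.3% of all RefSeq protein-coding genes. All 16 lists lie above that line, from 33.3% for TRAPP and the Sec22 family to 4 of 4 for VPS13, and several rest on 5 or fewer genes.

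Retromer, commander and the nexins that work with them, which recycle receptors from endosomes, had sites in 6 of 12 genes (28.3% of all RefSeq protein-coding genes did). There were 11 sites in all, with levels of 1.80% to 6.90%. Vps35, the retromer scaffold, had 2 sites at 6.90% and 5.26%, and Vps26b, the form of the arrestin-like subunit that is prominent in brain, had 1 at 3.57%. Its paralog Vps26a and Vps29, which complete the trimer, had 0. Vps35l, a subunit of the commander assembly, had 3 sites at 1.83%, 1.85% and 1.80%, of which the first 2 are 8 bases apart. The membrane-bending nexin genes Snx1 (4.44% and 2.94%) and Snx5 (4.44% and 3.39%) had 2 sites each, and their paralogs Snx2 and Snx6 had 0. Snx27, whose protein couples synaptic receptors to retromer, had 1 at 2.27%, while Snx3 and Vps26c had 0. None of these 11 sites reached 10%, where 14.9% of all sites of the list did. With so few sites nothing particular is read from this.

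The other sorting nexins, proteins with a phosphoinositide-binding PX domain, had sites in 12 of 24 genes (28.3% of all RefSeq protein-coding genes did), 19 in all. Of these 19 sites 7 reached 10%, where 14.9% of all sites of the list did, and the difference was not tested. They were 7 of the 19 vesicle traffic sites at that level. The depth at these sites is not given, so no stronger editing of nexin genes is read from their levels. Snx16, an endosomal nexin, had the highest level of all 153 sites, 23.1% at 883 bases from the 3′ end. Snx24 had 1 site at 18.2%, 317 bases from the end, and Snx12 had 1 at 14.3%, 123490 bases from the end. Snx18 (chromosome 13, 113592179 to 113618564), a membrane remodeller of endocytosis, had 4 sites at 8.82%, 13.3%, 2.50% and 14.3%. Its relative Snx9, which acts with dynamin, had 2 at 10.0% and 10.5%, one of them 34 bases from the start of the gene span and the other 4695 bases from its end. Snx33, of the same subfamily, had 1 at 2.41%. Snx14, a nexin of lipid droplet and ER contacts, had 3 at 3.92%, 4.55% and 1.72%, and Snx4, of recycling endosomes, had 2 at 2.27% and 2.44%. The remaining genes had 1 site each: Snx13 at 9.52%, Snx8 at 8.33%, Snx25 at 6.90% and Snx22 at 1.32%. The Snx22 site lies inside the span of Ppib, which runs on the opposite strand. Snx7, Snx10, Snx11, Snx15, Snx17, Snx19, Snx20, Snx21, Snx29, Snx30, Snx31 and Snx32 had 0.

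HOPS and CORVET, tethers of late and early endosomes, had sites in 5 of 8 genes (28.3% of all RefSeq protein-coding genes did), with Vps33b counted among them as the paralog of Vps33a. In mammals the Vps33a protein is the form assigned to these tethers, and that of Vps33b belongs to a separate complex. Vps33b had 1 site at 15.4%, 320 bases from the 3′ end. Its paralog Vps33a had 2, at 8.33% near the 3′ end and 1.01% near the start, an 8.25-fold gap that was the widest within any of the 41 genes with more than 1 site. Vps8 (2.78% and 6.90%) and Vps11 (4.88% and 4.26%) had 2 each and Vps39 had 1 at 5.88%, whereas Vps16, Vps18 and Vps41 had 0.

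ESCRT complexes and the Vps4 ATPases, which form multivesicular bodies and cut membrane necks, had sites in 4 of 9 genes (28.3% of all RefSeq protein-coding genes did). Of their 7 sites 6 lay in the last 5 kb (49.7% of all sites inside spans did). Vps37a, a subunit of ESCRT-I, had 2 sites at 11.1% and 5.56%, both inside the span of Mtmr7 as well. Vps25, of ESCRT-II, had 2 at 5.56% and 6.45%. Of the ATPase genes, Vps4a had 2 at 1.83% and 5.26%, and Vps4b had 1 at 5.41%, so that the site near the 3′ end had nearly the same level in both. Vps28, Vps36, Vps37b, Vps37c and Vps37d were without a site.

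GARP and EARP, which tether vesicles at the trans-Golgi network and on recycling endosomes, had sites in 4 of 5 genes (28.3% of all RefSeq protein-coding genes did). Vps51 (chromosome 19, 6067842 to 6077187) had 3 at 6.98%, 8.70% and 3.19%, all in the last 5 kb of a span of 9.35 kb. Vps52 had 2 at 6.45% and 6.67%, and Vps53 had 1 at 5.13%. Vps54 (chromosome 11, 21239032 to 21321133) had 3 low sites at 1.80%, 2.15% and 1.44%, and Vps50, the subunit that marks EARP, had 0.

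The exocyst, which tethers secretory vesicles at the plasma membrane, had sites in 7 of 12 genes (28.3% of all RefSeq protein-coding genes did), 11 in all. Exoc1 had 1 at 20.0%, one of the 3 sites of the whole group at that level. Exoc6b (chromosome 6, 84618486 to 85070258) had 4 sites at 1.54%, 3.64%, 2.38% and 1.27%, spread over 288.3 kb, and its paralog Exoc6 had 1 at 3.92%. Exoc2 had 2 at 6.45% and 6.25%, and Exoc5 had 1 at 4.76%. Exoc4 (1.36%) and Exoc7 (1.75%) had 1 each, and Exoc3, Exoc8 and the exocyst-like genes Exoc3l, Exoc3l2 and Exoc3l4 had 0. Apart from Exoc1, levels of this complex stayed under 7%, and the upper quartile of all sites of the whole list was 6.90%.

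COG, the tether of traffic within the Golgi, had sites in 6 of 8 genes (28.3% of all RefSeq protein-coding genes did), mostly 1 each. Cog2 had 2 at 3.51% and 9.52%, Cog5 had 1 at 8.0%, Cog1 3.33%, Cog7 3.12% and Cog3 1.65%. The single Cog8 site, at 2.35%, lies beyond the RefSeq span of Cog8 and inside that of Pdf, on the same strand. Cog4 and Cog6 had 0.

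TRAPP, which activates RAB GTPases on the way to and through the Golgi, had sites in 5 of 15 genes. That share, 33.3%, was near the 28.3% of all RefSeq protein-coding genes. Trappc13 had 2 sites that differed 4.33-fold, 17.7% and 4.08%, and Trappc10 had 2 that differed 4.58-fold, 9.52% and 2.08%. Trappc8 (2.17%), Trappc6b (1.79%) and Trappc11 (1.57%) had 1 each. The small core subunit genes Trappc1, Trappc2, Trappc2l, Trappc3, Trappc4, Trappc5 and Trappc6a had 0, as had Trappc3l, Trappc9 and Trappc12. TRAPP genes with a site had a median span of 43.3 kb and those without 9.96 kb. The longest vesicle traffic gene without a site also belongs here, Trappc9 at 471.6 kb. Whether span plays a part in these counts was not tested.

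VPS13 proteins are bridges that move lipids between organelles, and all 4 of their genes had sites, 14 in all. Vps13c (chromosome 9, 67840316 to 67997744) had the most sites of any vesicle traffic gene, 6, at 1.46%, 1.90%, 7.32%, 4.44%, 6.06% and 7.69% from the 5′ to the 3′ side. Vps13a (chromosome 19, 16615366 to 16781071) had 3 at 11.1%, 4.26% and 20.0%, a mean of 11.8% ± 7.89 (SD across sites). Vps13d (chromosome 4, 144871045 to 145195037) had 4, all low, at 3.17%, 2.82%, 1.24% and 1.0%, and Vps13b had 1 at 6.90%. Of these 14 sites 1, that of Vps13b, lay in the last 5 kb of its gene (49.7% of all sites inside spans did). The genes are long, with a median span of 244.8 kb. All 4 span more than 100 kb, a class in which 50.0% of other protein-coding genes had a site.

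**Figure D4:**
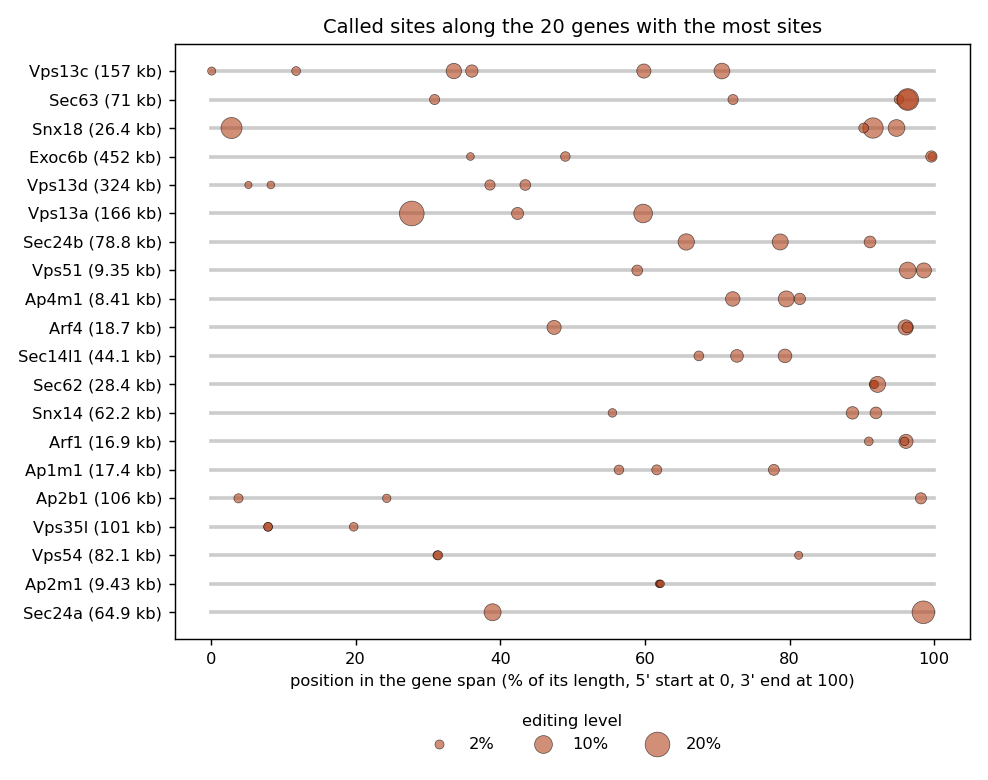
Called sites along the 20 vesicle traffic genes with the most sites (y axis, with the RefSeq span in kb); the x axis is the position as percent of the span from the 5′ start to the 3′ end, a circle is 1 site and its area grows with the editing level. In Sec62, Arf1 and Vps51 all 3 sites lie in the last 5 kb of the span, while the sites of Vps13a, Vps13c and Vps13d are all farther from the end. The spans of the 20 genes differ widely, from 8.41 kb in Ap4m1 to 451.8 kb in Exoc6b.

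Of the remaining genes with a vesicle traffic function, Sec22b, a SNARE of ER-to-Golgi traffic, had 1 site at 14.3%, 916 bases from the 3′ end. Sec22a, Sec22c and Vps45, which chaperones endosomal SNAREs, had 0. Vps9d1, which carries the VPS9 domain of RAB exchange factors, had 1 at 2.60%.

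Genes whose symbol matches but whose products do other work held 16 sites in 8 genes. Sec63 (chromosome 10, 42761496 to 42832514), which helps proteins enter the ER, had 5: 3 spread along the gene at 2.73%, 2.68% and 2.38%, and a pair 29 bases apart at 12.5% and 15.4%. Its partner Sec62 (chromosome 3, 30792876 to 30821263) had 3 within 157 bases, at 1.44%, 1.56% and 8.0%. Sec61a2, of the translocation channel, had 1 at 2.50% and the signal peptidase gene Sec11c 1 at 1.64%. Of the lipid-binding Sec14-like genes, Sec14l1 had 3 at 2.50%, 4.76% and 5.56%, Sec14l2 1 at 4.17% and Sec14l5 1 at 1.94%. Vps72, of chromatin remodelling complexes, had 1 at 3.03%, at 5 bases from the start of its span. Sec61a1, Sec61b, Sec61g, Sec11a, Sec14l3, Sec14l4 and Sec1, a fucosyltransferase gene, had 0. Without all names of this kind the median gene mean was 4.76% over 77 genes. Of the RefSeq protein-coding genes with the remaining names, 52.0% had a site.

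Of 18 sets of paralogs (45 genes) 5 had a site in each member, 10 in some, and 3 in none. Of the 45 genes 51.1% had a site, close to the 52.1% of all vesicle traffic genes, so nothing particular to paralogs is read from these counts. The sets with sites throughout were Sec23a and Sec23b, Vps4a and Vps4b, Vps33a and Vps33b, Ap3m1 and Ap3m2, and Exoc6 and Exoc6b. Those with 0 were Sec31a and Sec31b, the AP-1 sigma genes, and Ap3s1 and Ap3s2. In 7 pairs exactly 1 gene had a site, and it was the longer gene in 3 and the shorter in 4. Ap3b1 with sites spans 207.4 kb and Ap3b2 without 33.6 kb, whereas Snx5 with sites spans 20.8 kb and Snx6 without 49.4 kb. Reads that fit both copies may have been counted for either or neither, which the list does not show.

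The median site of vesicle traffic genes lay farther from the 3′ end of its gene than that of other genes. Of the 151 sites inside RefSeq spans 58 were in the last 5 kb (38.4%; 49.7% of all sites inside spans), and the median distance was 8508 bases against 5077 bases for all other genes. At 100 kb or more from the end lay 19 sites (12.6%), against 5.71% of the sites of other genes. Those 19 sites were in long genes, among them Vps13c, Vps13d, Exoc2, Exoc4, Exoc6b, Ap3b1 and Vps8. Whether the distance follows from gene length was not tested. In the first 1 kb lay 9 sites (5.96%; 8.00% of all sites inside spans). They were in Vps72, Snx9, Vps33a, Sec61a2, Vps4a, Vps13c, Trappc6b, Trappc8 and Snx18, and all but those of Snx9 (10.0%) and Snx18 (14.3%) were at 3.03% or less.

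**Figure D5:**
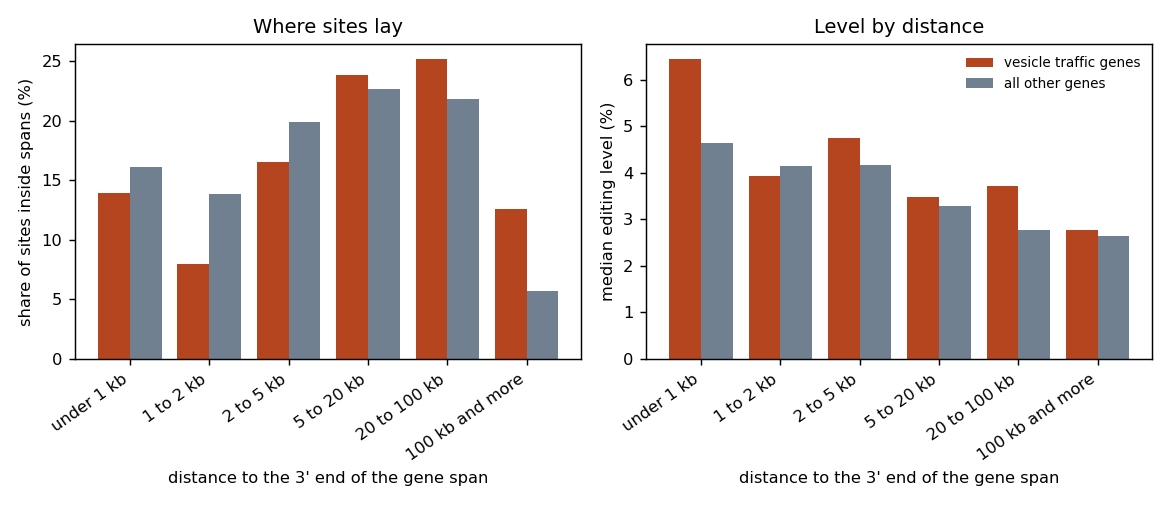
Left, share of the sites inside RefSeq spans (y axis, percent) by distance to the 3′ end of the gene (x axis); right, median editing level (y axis, percent) in the same classes; vesicle traffic genes are red (left bars) and all other genes grey (right bars). Vesicle traffic genes had 12.6% of their sites at 100 kb or more, against 5.71%, and in both sets the median level was highest in the last 1 kb.

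Levels were higher near the 3′ end. In the last 1 kb the median was 6.45% over 21 sites, against 4.65% for other genes, and at 100 kb or more it was 2.78% over 19 sites, against 2.65%. Spearman's rho of level and distance was -0.256 over the 151 sites and -0.201 over the 16714 sites of other genes; sites of a gene share its reads and its depth. The last 5 kb averaged 7.26% ± 5.25 (SD over 40 gene means) and the rest of the genes 4.86% ± 3.76 (SD over 60 gene means), a difference of 2.40 points, against 1.69 points in other genes. Sites in both parts were found in 16 genes, and in 13 of them the last 5 kb had the higher mean (81.2%; 70.9% of all such genes), with a mean difference of 2.08 points ± 3.74 (SD). The gaps were widest in Sec24a (16.7% and 9.09%), Trappc10 (9.52% and 2.08%), Sec63 (10.1% and 2.71%) and Vps33a (8.33% and 1.01%). Snx18 went the other way, with 8.22% near the end and 14.3% elsewhere, as did Arf4 (5.18% and 6.06%) and Ap3d1 (1.84% and 2.04%). With sites of at least 10% only, the difference was -0.073 points. A low level can be called only at a well-covered site and coverage is not given, so its part in this difference was not tested.

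Close neighbours were few and mostly alike. Another site lay within 100 bases for 17 of the 153 sites (11.1%; 22.9% of all sites of the list). Of the 9 pairs so formed in 8 genes, 7 differed less than 1.5-fold. The median was 1.19-fold, from 1.01-fold in Vps35l to 2.21-fold in Arf4 and 3.52-fold in Arf1. The pairs of Ap2m1, Sec62 and Vps35l all lay under 2%, near the lowest listed level of 1.0%, which bounds their ratios. A gene's full range can only equal or exceed that of its pairs, and it grows with the number of sites. In the 41 genes with at least 2 sites the highest level was 2.14 times the lowest in the median gene, under 1.5 times in 15 genes and over 3 times in 11.

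Other genes of the same pathways, which the symbols do not cover, had a site in 47 of 75 cases (62.7%, 125 sites), with a median gene mean of 3.70%. Of the vesicle traffic genes 52.1% had a site, and of all RefSeq protein-coding genes 28.3%. COPI, the coat of retrograde Golgi vesicles, had sites in 4 of 9 genes, led by Copa with 4 sites (mean 4.11%). Clathrin had sites in Cltc (7, mean 3.19%) and Cltb (3, mean 3.24%) and 0 in Clta. Among the GGA adaptors and regulators of ARF 12 of 18 had a site. The exchange factor genes Psd3 (9 sites, mean 2.45%) and Cyth1 (5, 2.7%) led by number, and the ARF-inactivating Arfgap1 by level (2 sites, mean 17.6%). Of ESCRT genes without a Vps name 9 of 19 had a site, among them Mvb12b with 7 (mean 4.55%) and Chmp1b with 4 (mean 11.3%). Of Golgi SNAREs and tethers 16 of 20 had one, among them Golgb1 with 8 (mean 1.81%), Uso1 with 6 (mean 3.70%) and the SNARE gene Stx6 with 4 from 4.17% to 46.7%. Of SAR1 and its partners in ER exit 4 of 6 had a site. These lists were put together with earlier results of the data known, and their shares were not tested against that of the vesicle traffic genes.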

How the data were processed

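Nuclear RNA of 2 libraries was sequenced. STAR 2.7.5 and mm10 are named in the submitters' processing notes, and per the series description C-to-U sites were called with Bullseye, a pipeline for such conversions. The authors deposited 1 list with an editing fraction per site, given here as percent. The way the libraries were combined, the control used and any coverage minimum were not stated. The lowest level is 1.0%.

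Symbols were matched to a RefSeq gene table (GRCm38.p6); all 85 matched. The table gives spans and no exons, so sites were placed by distance to span ends, with the strand of the list, which is that of RefSeq for 119 of 119 sites checked. Positions are 1-based. Shares, medians and means were computed with pandas 2.3.3, numpy 2.4.6 and scipy 1.17.1; distances were tested on simulated sites.

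Genes named were the 20 with the most sites, the 10 highest sites (4 tied at 14.3% for the last place), 3 per functional list, members with 0 sites and paralog sets, and then all others. Members and lists were chosen with earlier results of these data known. No test was run: the list holds 0 columns of per-library values. Alternatives were a minimum level, other windows, other gene summaries and leaving out names or 1 gene.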

Additional observations from a re-analysis of the deposited data

How the results depend on the processing

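Of 49 recomputed values, 28 stayed close to the reported one (counts, medians and differences within 1.5 times, shares within the exact 95% binomial interval of the reported share), 20 moved further and 1 reversed. With sites of at least 2%, the share with a neighbour within 100 bases was 4.96%, against 11.1% as reported. With sites of at least 5% there were 61 sites in 44 genes, 27.0% of the 163 RefSeq protein-coding genes with such a symbol. The 28.3% of all RefSeq protein-coding genes holds for the full list, without such a minimum. The median gene mean was 8.08%, 50.8% of sites lay in the last 5 kb, and 65.9% of genes had a single site. A neighbour was present for 3.28% of sites, and the level difference of the last 5 kb minus the rest was 1.48 points. With sites of at least 10% there were 19 sites in 15 genes, 9.20% of those 163 genes. The median gene mean was 15.4%, 63.2% of sites lay in the last 5 kb, and 73.3% of genes had a single site. The level difference reversed to -0.073 points. A higher minimum keeps fewer sites by construction. Windows of 1 kb and 2 kb in place of 5 kb held 13.9% and 21.9% of sites, and with 1 kb the difference was 4.15 points. Within 20 and 500 bases 3.27% and 18.3% of sites had a neighbour. Leaving out Vps13c, or the names with another function, moved none of the 8 values past these limits. No paired analysis was possible because the list holds no value per library, and for the same reason no library could be left out. Depth is unknown, so a gene with 0 sites is not shown to lack m6A.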
